A study of Mus musculus with 28 samples.

Results

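The collagen genes of mouse bone lining and marrow cells are described here across endothelial cells (EC), mesenchymal stromal cells (MSC) and mononuclear cells (MNC) of wild-type and Flt3-ITD mice. The genes were taken by name alone, as every row of the deposited table whose symbol is Col, a type number, the letter a and a chain number, which gave 44 of 25251 genes. Each symbol names 1 alpha chain of 1 collagen type. RNA sequencing was done on sorted cells, 5 libraries for EC and 5 for MSC of each genotype, and 4 libraries for MNC of each genotype, 28 in all. EC were sorted as CD45-Ter119-CD31+ and MSC as CD45-Ter119-CD31-CD166-Sca1+ from bone fragments that had been digested with collagenase, an enzyme that cuts the collagen protein, and MNC were total marrow mononuclear cells. Wild-type mice (Flt3+/+) and mice carrying the internal tandem duplication (ITD) of the Flt3 receptor knocked into both alleles (Flt3 ITD/ITD) were of the C57 BL6 strain and 8 to 10 weeks old. Each library came from 1 mouse, with 100 sorted cells for EC or MSC and 200 for MNC, so that a single library rests on few cells. The comparisons asked how collagen transcripts differ between the niche populations, and whether the leukemia-associated ITD allele, which also drives a myeloproliferation in these mice, goes with a difference in them.

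Collagens are secreted proteins whose 3 chains wind into a triple helix. The fibrillar types (I, II, III, V, XI, XXIV, XXVII) form the rope-like fibrils of bone, tendon and cartilage, the FACIT types (IX, XII, XIV, XVI, XIX, XX, XXII) decorate those fibrils, and type VI forms beaded filaments around cells. Type IV builds the sheet-like network of basement membranes, such as those under endothelium, where the multiplexins (XV and XVIII) are also found, and type VIII forms short-chain networks in vessel walls and elsewhere. In bone, stromal and osteoblastic cells are the main source of fibrillar collagen.

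The proximal promoters of 4 genes that lead the results below are shown, since the type IV pair leads EC and the type I and III genes lead MSC. Each window runs from 250 bases before to 50 bases after the RefSeq start of the gene (GRCm38.p6), written from 5′ to 3′ on the strand of the gene, and such windows were found for 35 of the 44 genes, the others being Col1a1, Col2a1, Col4a3, Col5a2, Col9a3, Col12a1, Col14a1, Col22a1 and Col26a1. Capitals mark 3 motifs that were searched for on both strands, so that a match on the other strand stands as its reverse complement: the CCAAT box, the GC box GGGCGG and the TATA box TATAAA.
Col4a1, chr8:11312777-11313076, minus strand: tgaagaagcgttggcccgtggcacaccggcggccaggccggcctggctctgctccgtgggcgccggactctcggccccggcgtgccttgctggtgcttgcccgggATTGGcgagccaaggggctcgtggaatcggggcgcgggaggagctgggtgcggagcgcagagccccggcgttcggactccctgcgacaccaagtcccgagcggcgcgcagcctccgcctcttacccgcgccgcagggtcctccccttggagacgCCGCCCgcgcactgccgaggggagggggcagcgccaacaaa
Col4a2, chr8:11312555-11312854, plus strand: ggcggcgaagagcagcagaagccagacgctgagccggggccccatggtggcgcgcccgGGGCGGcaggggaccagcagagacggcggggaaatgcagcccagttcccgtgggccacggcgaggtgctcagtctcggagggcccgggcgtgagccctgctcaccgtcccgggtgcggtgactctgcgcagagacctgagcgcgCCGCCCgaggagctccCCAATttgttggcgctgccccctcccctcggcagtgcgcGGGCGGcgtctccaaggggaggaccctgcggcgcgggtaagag
Col1a2, chr6:4505368-4505667, plus strand: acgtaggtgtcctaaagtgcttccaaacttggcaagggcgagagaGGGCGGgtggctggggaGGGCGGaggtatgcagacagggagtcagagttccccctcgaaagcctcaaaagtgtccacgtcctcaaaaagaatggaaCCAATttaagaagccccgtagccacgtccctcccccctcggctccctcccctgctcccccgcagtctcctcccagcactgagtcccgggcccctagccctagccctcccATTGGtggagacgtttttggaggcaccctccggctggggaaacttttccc
Col3a1, chr1:45311288-45311587, plus strand: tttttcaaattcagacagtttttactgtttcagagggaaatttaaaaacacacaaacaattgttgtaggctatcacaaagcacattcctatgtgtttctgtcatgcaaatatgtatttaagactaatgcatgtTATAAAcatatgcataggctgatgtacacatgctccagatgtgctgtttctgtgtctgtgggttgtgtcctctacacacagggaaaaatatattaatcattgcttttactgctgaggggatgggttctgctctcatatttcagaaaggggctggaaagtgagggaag
Col4a1 and Col4a2 lie head to head, with RefSeq starts 21 bases apart, so their windows share 78 bases. Both windows hold the CCAAT box and the GC box, as does that of Col1a2, while the window of Col3a1 holds neither and has 1 TATA box, at 117 bases before the start. Of all 32817 windows 37.4% hold the CCAAT box, 35.6% the GC box and 13.6% the TATA box, and of the 38 windows of collagen genes 13, 23 and 5 hold them. These matches describe the letters of the windows and no factor binding was measured.

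Depth ranged from 6377013 to 33880743 estimated counts per library, with the shallowest in EC of Flt3-ITD mice. The sorted cells were checked against marker genes. The 8 endothelial markers summed to 1869 to 2733 RPKM (read counts scaled by transcript length and library depth) in EC and 5.47 to 24.9 in MSC, and Pdgfra, a receptor of stromal cells, averaged 83.0 RPKM in MSC and 0.343 in EC (0.179 without library 1 of wild-type EC). The summed list of 8 mesenchymal markers did not separate the populations. Its largest member, Ly6a, which encodes the Sca1 antigen, averaged 4759 RPKM in EC and 2756 in MSC. Eng was also higher in EC, at 24.14 to 90.29 RPKM against 0.65 to 9.88 in MSC. Lepr (16.3 to 99.64 RPKM in EC and 19.78 to 76.45 in MSC), Cxcl12, Thy1 and Nt5e overlapped between the populations. Like Pdgfra, Pdgfrb was higher in MSC, at 11.43 to 24.97 RPKM against 0.01 to 3.85 in EC. The MSC libraries also held markers of neighbouring skeletal lineages, counted when above 3 counts in any library. There were 7 osteoblast markers with a sum of 190 to 3552 RPKM, 6 chondrocyte markers at 955 to 5884 RPKM and 4 tenocyte markers at 163 to 1089 RPKM. Dmp1 and Matn1 stayed at or below 3 counts in all MSC libraries. Ibsp led the osteoblast sum, at 106 to 2903 RPKM. Other osteoblast markers were low in MSC or not particular to it. Alpl was at 0.70 to 30.0 RPKM in MSC and 5.15 to 84.2 in EC. Runx2 was at 0.09 to 4.46 RPKM in MSC and 2.10 to 13.7 in MNC, and Sp7 at 0 to 3.05 RPKM in MSC. In EC the 6 mural markers, led by Rgs5, summed to 89.1 to 1038 RPKM. Leukocyte markers reached 386 RPKM in library 2 of Flt3-ITD EC and 239 RPKM in library 5 of Flt3-ITD MSC, against 5125 to 8349 RPKM in MNC. Schwann cell markers summed to 543 to 905 RPKM in MSC and 14.1 to 84.1 RPKM in EC, with Sox10 at or below 3 counts in both. The adipocyte list followed Fabp4, which averaged 14775 RPKM in EC, with Plin1 and Cidec at or below 3 counts in EC and MSC. Erythroid markers spread from 93.0 to 145091 RPKM among MNC libraries of wild-type mice and from 2167 to 22272 RPKM among those of Flt3-ITD mice.

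Collagen transcripts were abundant in MSC, moderate in EC and close to absent in MNC. They took 0.857% to 1.75% of all counts in the 10 MSC libraries, 0.107% to 0.240% in the 10 EC libraries and 0.00114% to 0.00286% in the 8 MNC libraries, and the populations did not overlap. In such bulk libraries fewer cells of a type and less RNA per cell cannot be told apart. At a mean of at least 1 RPKM there were 28 collagen genes in MSC, 12 in EC and 0 in MNC. The 44 genes differed in how steadily they were seen: 21 exceeded 3 counts in every MSC library and 7 in every EC library, whereas 4 exceeded it in no MSC library and 12 in no EC library.

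**Figure D1:**
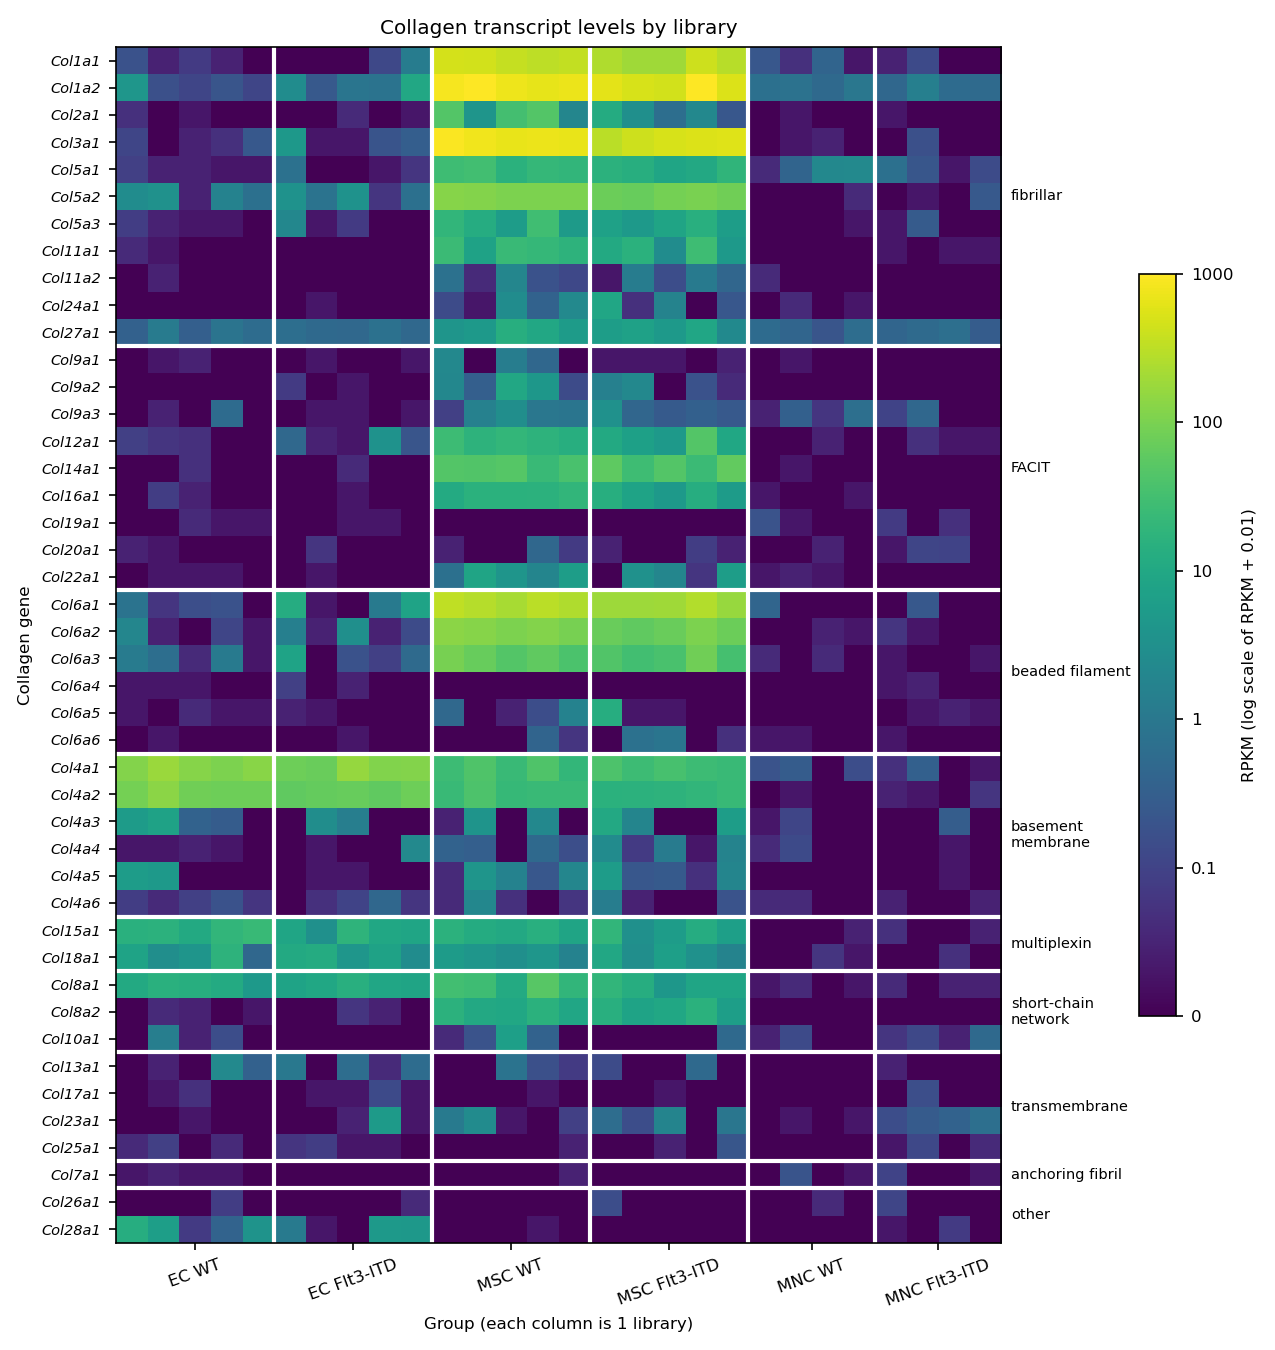
Level of all 44 collagen genes (rows, by class) in all 28 libraries (columns, by group), as RPKM on a log colour scale after adding 0.01. The fibrillar, FACIT and beaded filament blocks are bright mainly in the 10 MSC columns, Col4a1 and Col4a2 are brightest in EC, and most squares of the MNC columns are at or near 0.

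Each population had its own collagen make-up. Fibrillar chains held 75.8% ± 2.43 (SD, n = 10) of the summed collagen RPKM in MSC and 2.19% ± 2.20 (n = 10) in EC. The 6 type IV chains held 81.2% ± 5.97 in EC and 2.56% ± 0.788 in MSC. In MSC the next class was type VI, with 16.2% ± 1.36, and in EC it was the multiplexins, with 8.42% ± 3.05. The lowest type IV share in EC, 67.7%, was in library 1 of Flt3-ITD EC, the shallowest library, where type VI chains held 10.6%.

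**Figure D2:**
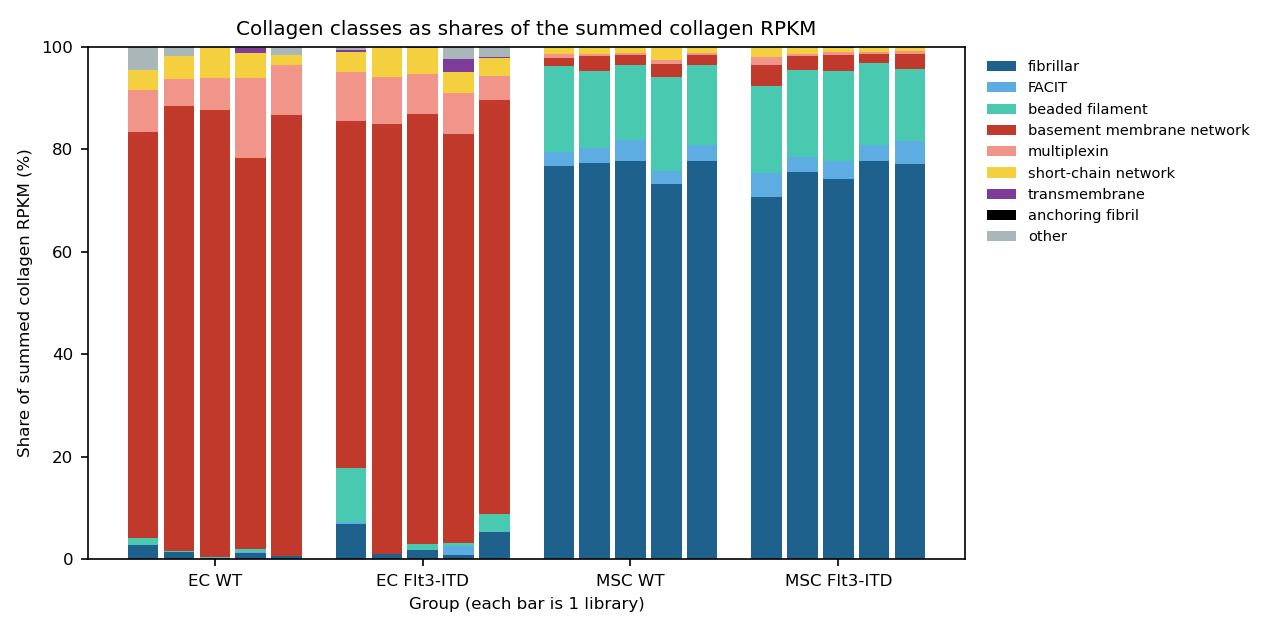
Share of the summed collagen RPKM (percent, y axis) held by each class in each EC and MSC library (1 bar per library). Type IV fills 67.7% to 87.3% of every EC bar, and the fibrillar class fills 70.6% to 77.8% of every MSC bar.

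Between EC and MSC, 35 of the 44 genes had enough counts to be tested. A gene was called when the adjusted p of edgeR's quasi-likelihood test was under 0.1 and the log2 ratio of mean RPKM (after adding 0.01) was at least 1 in size. Of these, 25 were called higher in MSC, beside 16.5% of all genes tested, and 3 were called higher in EC, beside 16.1% of all genes. In 16 members the 10 EC libraries all lay below the 10 MSC libraries, which was the case for 3.61% of all genes, and in 2, Col4a1 and Col4a2, they all lay above, as for 4.75% of all genes. The median log2 difference (EC over MSC) was -7.04 over the 35 members and -0.01 over all genes. Genes entered the test through the population in which they were high, so these counts describe the tested members and not all 44.

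The fibrillar chains were the most abundant collagens of MSC. Col1a2, a chain of type I collagen, the main protein of bone, was at 865, 1020.1, 733, 654 and 725 RPKM in wild-type MSC and at 612, 506, 456, 1049.8 and 541 RPKM in Flt3-ITD MSC, and its mean over both was at rank 139 of all genes in MSC. Its partner Col1a1 was at 480.1, 458, 369, 318 and 344 RPKM in wild-type MSC and at 249, 192, 195, 407 and 289 RPKM in Flt3-ITD MSC. In EC, Col1a2 lay between 0.10 and 9.85 RPKM and Col1a1 between 0 and 1.27 RPKM, so that neither overlapped with MSC. On the log2 scale the difference between EC and MSC was -11.68 ± 1.17 (SE, adjusted p = 1.94e-08 by edgeR) for Col1a1 and -9.09 ± 0.95 (adjusted p = 3.83e-08 by edgeR) for Col1a2. The EC means leaned on library 5 of Flt3-ITD mice: that of Col1a1 was 0.165 RPKM with it and 0.042 without it, and that of Col1a2 was 1.93 RPKM with it and 1.05 without it, so no fold is given for them.

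Although type I collagen protein holds more alpha 1 than alpha 2 chains, the Col1a2 transcript exceeded Col1a1 per length in all 10 MSC libraries, by 1.80- to 2.63-fold. The part that uneven read coverage along these long transcripts plays in such ratios was not tested. Col3a1, the chain of type III collagen of pliable tissues, exceeded Col1a1 likewise, by 1.19- to 2.56-fold, with 937, 782, 680.3, 712 and 686 RPKM in wild-type MSC and 297, 423, 501, 553 and 561 RPKM in Flt3-ITD MSC. The MSC means were 716 ± 206 RPKM (SD, n = 10) for Col1a2, 613 ± 185 for Col3a1 and 330.2 ± 101 for Col1a1. Across libraries the 3 overlapped, at 456 to 1049.8 RPKM for Col1a2, 297 to 937 for Col3a1 and 192 to 480.1 for Col1a1. Within each MSC library Col1a1 was the lowest of the 3.

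Type V collagen starts and limits the width of type I fibrils. Its chains Col5a2, Col5a1 and Col5a3 averaged 96.6 ± 18.2, 18.3 ± 7.02 and 11.4 ± 8.04 RPKM (SD, n = 10) in MSC, and Col5a2 exceeded Col5a1 by 3.74- to 10.3-fold within a library. All 3 were called higher in MSC than in EC, and Col5a2 was the highest of the 3 in EC, where it spread from 0.02 to 3.53 RPKM. Col27a1 was the least unequal of the fibrillar chains, with 6.82 ± 3.36 RPKM in MSC and 0.609 ± 0.259 in EC, an 11.2-fold difference.

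The cartilage chains were high in MSC too, but less evenly. Col2a1, the main collagen of cartilage, was at 45.3, 4.06, 31.5, 46.1 and 1.98 RPKM in wild-type MSC and at 12.1, 3.05, 0.62, 2.11 and 0.22 RPKM in Flt3-ITD MSC. Col11a1, which joins type II fibrils, was at 25.9, 7.55, 24.1, 21.2 and 17.1 RPKM in wild-type MSC and 10.8, 15.9, 2.64, 27.9 and 4.91 RPKM in Flt3-ITD MSC and never exceeded 2 counts in EC, where it was at least 319-fold lower (against the level that 3 counts per library would give). Col9a1, a FACIT chain of cartilage fibrils, exceeded 3 counts in only 3 libraries, wild-type MSC 1, 3 and 4, which were also the 3 libraries with the highest Col2a1. Of the chondrocyte markers, Acan, the cartilage aggrecan, was between 1.89 and 24.3 RPKM in MSC and Sox9, its regulator, between 32.9 and 183 RPKM. Hapln1 was between 0.55 and 20.4 RPKM, Matn3 between 0 and 1.57 RPKM, and Matn1 at 0 in every MSC library. Chad (591 to 4855 RPKM) and Comp (318 to 1084 RPKM) led the marker sum. The part of chondrocytes in the Col2a1 and Col9a1 levels was not tested.

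Among the other FACIT chains, Col14a1 stood out, with 45.5, 44.5, 48.4, 24.3 and 36.5 RPKM in wild-type MSC, 58.4, 28.01, 46.9, 25.8 and 64.03 RPKM in Flt3-ITD MSC and at most 0.04 RPKM in EC. It had the largest difference of the 35 tested members between EC and MSC, at -12.59 ± 0.68 on the log2 scale (adjusted p = 2.11e-12 by edgeR). Col12a1 and Col16a1, other chains bound to the surface of fibrils, averaged 17.3 ± 11.9 and 12.4 ± 4.88 RPKM in MSC. All 6 FACIT chains tested, of 9 in the table, were called higher in MSC. Col9a3 shares up to 234 exonic bases with Tcfl5 on the other strand in GENCODE M21, and strand was not stated to be used in counting, so its MSC value (1.11 ± 1.18 RPKM) is uncertain beside a Tcfl5 level of 0.08 to 13.5 RPKM.

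Type VI chains assemble as a trimer of alpha 1, alpha 2 and a longer partner, most often alpha 3. Col6a1 was at 329, 281, 223, 302 and 251 RPKM in wild-type MSC and 183, 188, 191, 262 and 167 RPKM in Flt3-ITD MSC. Col6a2 was at 133, 122, 104, 119 and 94.8 RPKM in wild-type MSC and 70.99, 59.2, 70.5, 102 and 75.7 RPKM in Flt3-ITD MSC. All 5 wild-type libraries were above 4 of the 5 Flt3-ITD libraries for both genes, and library 4 of Flt3-ITD MSC lay among the wild-type values. In MSC, Col6a1, Col6a2 and Col6a3 averaged 238 ± 55.7, 95.2 ± 25.2 and 53.6 ± 22.2 RPKM (SD, n = 10), and Col6a1 exceeded Col6a2 by 2.15- to 3.17-fold and Col6a3 by 3.17- to 6.66-fold within each library. The alternative long chains were rare or uneven. Col6a5 reached 13.3 RPKM in library 1 of Flt3-ITD MSC but stayed at or below 1.67 RPKM in the other 9 MSC libraries, Col6a6 was at most 0.85 RPKM, and Col6a4 had 0 counts in all 10 MSC libraries. In EC, Col6a1 was uneven, from 0 to 12.3 RPKM, with library 1 (12.3) and library 5 (7.88) of Flt3-ITD mice highest. Those libraries also held the highest Col3a1 (4.57 RPKM, library 1) and Col1a2 (9.85 RPKM, library 5) among EC. Their mural marker sums, 1038 and 647 RPKM, were the highest and the second highest of Flt3-ITD EC. Library 1 of wild-type EC had a mural sum of 768 RPKM, with Col6a1 at 0.80, Col3a1 at 0.10 and Col1a2 at 4.23 RPKM. The proteoglycan transcript Dcn was at 0.77 and 54.6 RPKM in libraries 1 and 5 of Flt3-ITD EC and at 51.1 RPKM in library 2 of wild-type EC, against 21731 RPKM or more in MSC. The part that stray cells or mural cells play in these EC values was not tested.

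Type IV chains showed the reverse order. Col4a1 was at 119, 176, 122, 102 and 131 RPKM in wild-type EC and at 79.5, 70.8, 165, 112 and 116 RPKM in Flt3-ITD EC. Col4a2, its partner in the common type IV trimer, was at 91.9, 133, 81.4, 77.6 and 78.0 RPKM in wild-type EC and at 59.1, 65.0, 70.4, 61.0 and 77.4 RPKM in Flt3-ITD EC. All 10 EC libraries exceeded all 10 MSC libraries, where Col4a1 lay between 20.4 and 42.0 RPKM and Col4a2 between 15.4 and 40.0 RPKM. The difference (EC over MSC) was 1.71 ± 0.47 on the log2 scale for Col4a1 (adjusted p = 0.0065 by edgeR) and 1.58 ± 0.25 for Col4a2 (adjusted p = 2.08e-05 by edgeR), a 3.87-fold and a 3.49-fold ratio of mean RPKM. The ratio of Col4a1 to Col4a2 within a library ran from 1.09 to 2.35 in EC and from 0.844 to 2.57 in MSC. The exons of the 2 genes overlap by up to 22 bases in GENCODE M21.

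The minor type IV chains were detected in some libraries only. Col4a3 was above 1 RPKM in wild-type EC 1 and 2 (5.52 and 7.65) and in Flt3-ITD EC 2 and 3 (2.85 and 1.36), and it reached 10.5 RPKM in MSC. Its exons share up to 289 bases with C430014B12Rik on the other strand in GENCODE M21, which has no values in the deposited table. Col4a5, the X-linked chain, was at 5.85 and 4.79 RPKM in wild-type EC 1 and 2, at 0 in the other 3 wild-type EC libraries, and at or below 2 counts in every Flt3-ITD EC library. Col4a4 and Col4a6 averaged 0.230 and 0.104 RPKM in EC and 0.689 and 0.364 RPKM in MSC, and both were called higher in MSC. The EC mean of Col4a4 was 0.0067 RPKM without library 5 of Flt3-ITD EC and that of Col4a6 was 0.064 without library 4, and the MSC mean of Col4a6 was 0.179 without library 2 of wild-type MSC. In MSC, Col4a3 was at 0 in 2 of 5 libraries of each genotype.

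The multiplexins, which are basement membrane collagens that carry sugar chains, were shared by both niche populations. Col15a1 was at 14.8, 16.6, 10.7, 19.3 and 23.3 RPKM in wild-type EC and at 8.66, 3.25, 17.7, 9.46 and 8.75 RPKM in Flt3-ITD EC, beside 10.8 ± 5.03 RPKM (SD, n = 10) in MSC. Its difference between EC and MSC was -0.01 ± 0.43 on the log2 scale (unadjusted p = 0.98 by edgeR), the smallest in size of the 35 tested. Col18a1, the source of the endostatin fragment, was at 7.79, 3, 3.98, 17.4 and 0.46 RPKM in wild-type EC and 10.9, 12, 4.25, 7.73 and 2.74 RPKM in Flt3-ITD EC, which varied widely in both genotypes. It averaged 7.03 ± 5.21 RPKM in EC and 4.34 ± 2.51 in MSC, with a difference of 0.41 ± 0.57 (adjusted p = 0.639 by edgeR). Both genes were below 0.06 RPKM in every MNC library.

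Of the short-chain collagens, Col8a1 was in both populations and Col8a2 in MSC alone at more than trace levels. Col8a1 was at 10.97, 14.9, 13.8, 11.6 and 4.74 RPKM in wild-type EC and 7.82, 9.69, 14.1, 9 and 8.38 RPKM in Flt3-ITD EC. The EC libraries lay closer together than those of MSC. It averaged 10.5 ± 3.20 RPKM in EC and 19.5 ± 13.8 RPKM in MSC, and its difference of -0.98 ± 0.33 passed the adjusted p (0.0248 by edgeR) but not the fold rule. Col8a2 was at 16.4, 10.4, 9.44, 15.6 and 9.12 RPKM in wild-type MSC and 14.5, 7.97, 9.33, 15.7 and 6.36 RPKM in Flt3-ITD MSC. It was at most 6 counts in EC and had 0 counts in all 8 MNC libraries. Col10a1, the collagen of hypertrophic cartilage, reached 6.60 RPKM in library 3 of wild-type MSC and stayed at or below 0.50 RPKM in the other 9 MSC libraries. Its exons share 18 bases with Nt5dc1 on the other strand, which was at 5.67 to 45.7 RPKM in MSC.

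Col28a1, a collagen with von Willebrand factor domains, was the only member with a large excess in EC. It was at 12.8, 6.34, 0.06, 0.38 and 3.61 RPKM in wild-type EC and at 1.14, 0.01, 0, 5.06 and 4.73 RPKM in Flt3-ITD EC, and never above 1 count in MSC. By mean RPKM it was at least 109-fold higher in EC than the level of 3 counts per MSC library (adjusted p = 6.87e-05 by edgeR). Its level varied widely among EC of each genotype, and 2 of the 10 EC libraries had 1 or 0 counts. Of the transmembrane chains, Col13a1 lay between 0 and 2.25 RPKM in EC and between 0 and 0.81 RPKM in MSC, and Col17a1 and Col25a1 stayed below 0.3 RPKM in every library. Col7a1, the anchoring fibril of skin, was below 0.2 RPKM in every library.

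**Figure D3:**
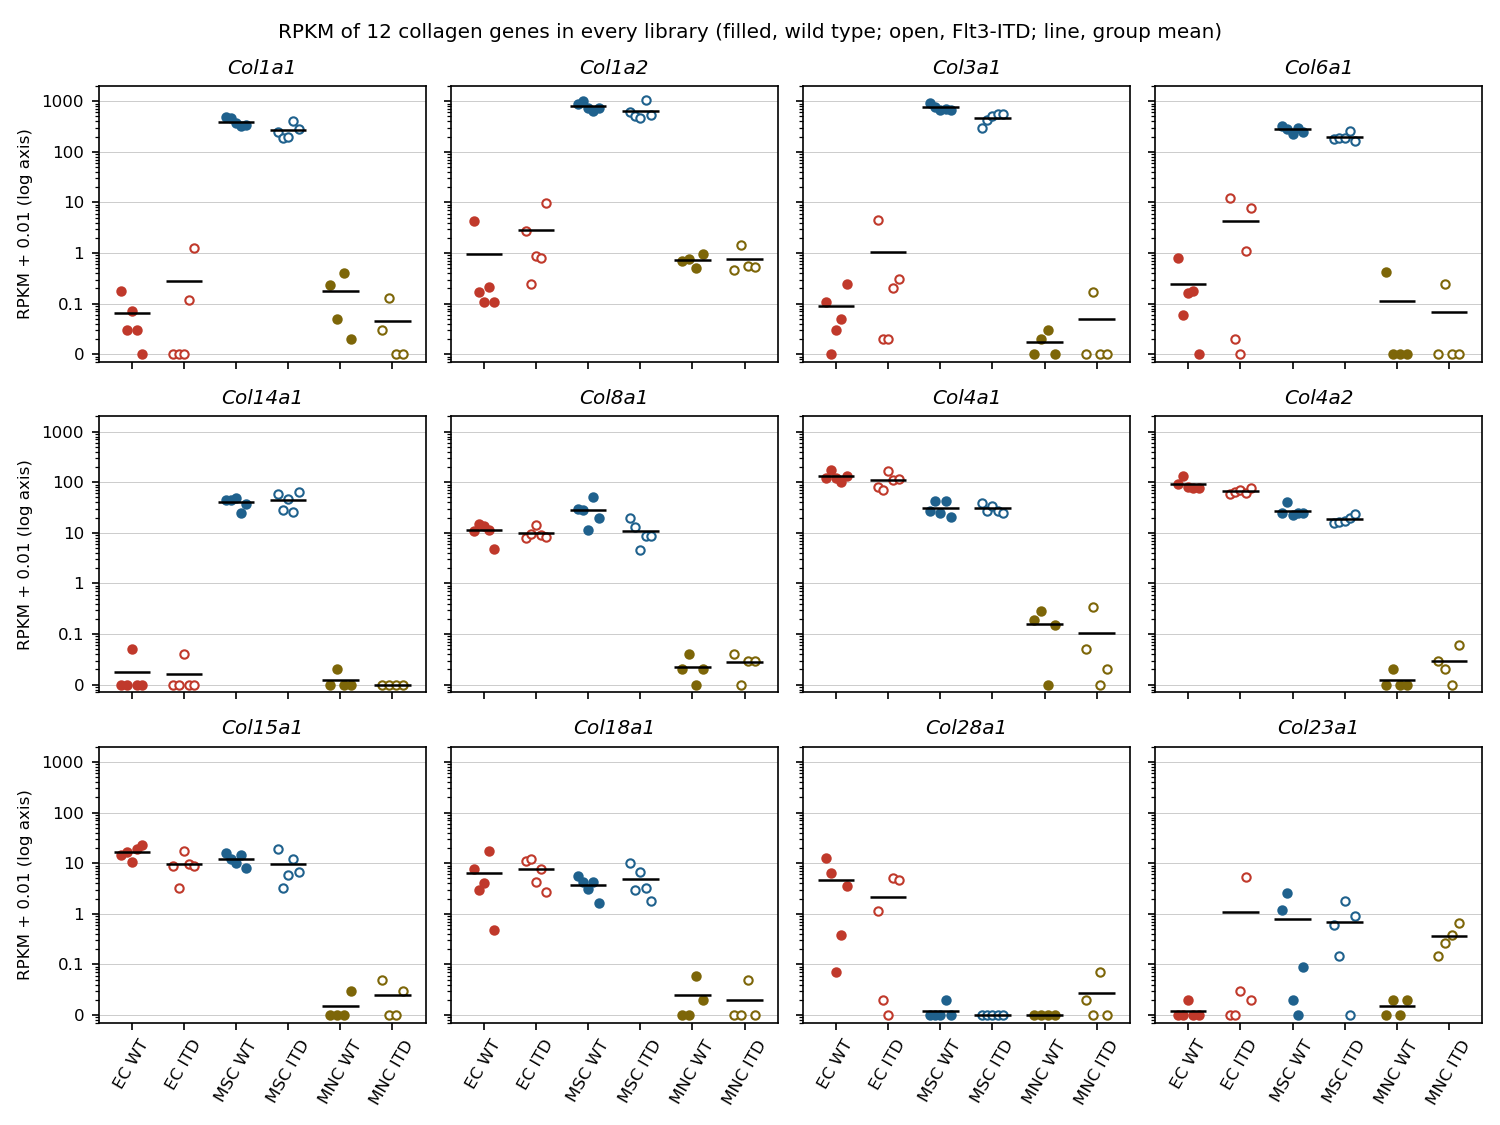
RPKM of 12 collagen genes in every library (log axis after adding 0.01, so that 0 sits at the bottom), by group, with filled points for wild type, open points for Flt3-ITD and a line at the group mean. Col1a1, Col1a2, Col3a1, Col6a1 and Col14a1 are separated between MSC and EC without overlap, Col15a1 and Col18a1 overlap between them, and Col28a1 spreads from 0 to 12.8 within EC.

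MNC held little collagen transcript. The highest members there were Col1a2, at 0.69, 0.77, 0.50 and 0.96 RPKM in wild-type and 0.45, 1.43, 0.55 and 0.52 RPKM in Flt3-ITD libraries, and Col5a1, at 0.03, 0.40, 2.14 and 2.21 RPKM in wild-type and 0.68, 0.21, 0.01 and 0.13 RPKM in Flt3-ITD libraries. Neither separated the genotypes. Col27a1 was at 0.54, 0.42, 0.20 and 0.59 RPKM in wild-type MNC and 0.41, 0.53, 0.65 and 0.27 RPKM in Flt3-ITD MNC, and Col4a1 was at 0.18, 0.27, 0 and 0.14 RPKM in wild-type MNC and 0.04, 0.33, 0 and 0.01 RPKM in Flt3-ITD MNC. Col27a1 exceeded 3 counts in every MNC library and Col4a1 in some only. MSC exceeded MNC in 33 of the 35 tested members, beside 22.2% of all genes, and no member was called lower in MSC, beside 22% of all genes. In MNC libraries alone 5 members passed the count filter, so the 35 entered the test mainly through EC or MSC. These counts therefore describe the tested members, and their direction was largely set by that filter. Col14a1 was at least 1127-fold and Col8a2 at least 308-fold higher in MSC than the level of 3 counts per MNC library, and Col3a1 differed by 15.33 ± 1.54 on the log2 scale (adjusted p = 1.06e-08 by edgeR). Col3a1 had 18 counts in library 2 of Flt3-ITD MNC and at most 1 in every other MNC library. The size of its difference therefore rests on counts near the floor.

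EC exceeded MNC in 17 members, beside 23% of all genes, and fell below MNC in 2, beside 21.9% of all genes. Here too the tested members entered mainly through EC or MSC, so the counts describe those members only. The excess was largest for Col4a2, at 13.23 ± 0.48 on the log2 scale (adjusted p = 6.85e-17 by edgeR), Col15a1 at 9.96 ± 0.74, Col4a1 at 9.85 ± 0.76 and Col18a1 at 9.28 ± 0.94. In MNC libraries Col4a2 had at most 5 counts and Col15a1 and Col18a1 at most 4. The sizes of their differences therefore rest on counts near the floor. The members higher in MNC were Col5a1, with a log2 difference of -3.41 ± 0.87 (adjusted p = 0.0022 by edgeR), and Col9a3, with -2.61 ± 1.10 (adjusted p = 0.0552 by edgeR). Col5a1 shares up to 113 exonic bases with Gm13372 and 99 with 2810430I11Rik on the other strand in GENCODE M21. Neither has values in the deposited table, so their part in the Col5a1 counts was not tested. For Col9a3, Tcfl5 on the other strand was between 0 and 0.08 RPKM in MNC. Col9a3 was no longer called without library 4 of wild-type MNC or library 2 of Flt3-ITD MNC (adjusted p = 0.146 and 0.245 by edgeR), and was at 0.02, 0.33, 0.05 and 0.65 RPKM in wild-type MNC and 0.09, 0.45, 0 and 0 RPKM in Flt3-ITD MNC.

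Between MSC of Flt3-ITD and of wild-type mice no collagen gene was called, while most tested members had a fold change below 0. Summed over all 44 genes, collagen came to 2814 ± 381 RPKM (SD, n = 5) in wild-type and 1984 ± 468 RPKM (n = 5) in Flt3-ITD MSC, with ranges of 2458 to 3297 and 1636 to 2793 that overlapped. Of the 30 members tested, 22 had a log2 fold change (Flt3-ITD over wild type) below 0, beside 47.9% of all genes, and the median was -0.37 beside 0.03 over all genes. Before adjustment, 8 members had an unadjusted edgeR p under the threshold of 0.05 and were lower in Flt3-ITD, beside 1.95% of all genes, and 0 were higher, beside 2.28% of all genes. After adjustment over all 13574 genes tested, none of the 30 was called, beside 0.0295% of all genes, and the smallest adjusted p was 0.999 by edgeR.

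The 8 members came from several classes. They were the fibrillar chains Col3a1, Col5a1, Col5a2 and Col2a1, the type VI chains Col6a1 and Col6a2, the type IV chain Col4a2 and the short-chain Col8a1. Col3a1 had the smallest unadjusted p (0.00488 by edgeR), with a log2 fold change of -0.65 ± 0.19 (SE), and its 5 Flt3-ITD libraries (297 to 561 RPKM) all lay below the 5 wild-type ones (680.3 to 937). Col5a2 did not overlap either, at 126, 117, 102, 105 and 103 RPKM in wild-type MSC and 75.1, 68.6, 88.9, 98.96 and 81.03 RPKM in Flt3-ITD MSC, with a log2 fold change of -0.38 ± 0.15, and these 2 members were the only ones of the 30 without overlap, beside 0.56% of all genes. Chains of one trimer had fold changes of unequal size, and their differences were not tested: Col6a2 was at -0.51 ± 0.18 and Col6a1 at -0.42 ± 0.18, while Col6a3 was at -0.36 ± 0.34 (unadjusted p = 0.309 by edgeR), and Col4a2 was at -0.51 ± 0.20 (24.3, 39.99, 22.9, 24.2 and 24.2 RPKM in wild-type MSC and 15.4, 16.6, 17.3, 19.4 and 23.2 RPKM in Flt3-ITD MSC), while Col4a1 was at 0.03 ± 0.24.

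Larger fold changes went with more spread. Col8a1 was at 30.0, 28.6, 11.6, 50.6 and 19.7 RPKM in wild-type MSC and at 19.3, 13.2, 4.51, 8.77 and 8.79 RPKM in Flt3-ITD MSC, a log2 fold change of -1.30 ± 0.44 with overlapping groups. Col5a1 was at 27.5, 31.2, 15.6, 21.04 and 19.6 RPKM in wild-type MSC and 16.3, 13.8, 8.63, 10.5 and 18.7 RPKM in Flt3-ITD MSC, a log2 fold change of -0.71 ± 0.25. Col2a1 was at -2.79 ± 1.11, with 2 wild-type libraries (4.06 and 1.98 RPKM) within the range of the Flt3-ITD ones. Col1a1 (-0.50 ± 0.24, unadjusted p = 0.0575 by edgeR) and Col1a2 (-0.27 ± 0.25) were below 0 in Flt3-ITD as well, and both were highest in library 4 among Flt3-ITD MSC. The exceptions above 0 included Col14a1 at 0.20 ± 0.29 and Col18a1 at 0.42 ± 0.52.

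**Figure D4:**
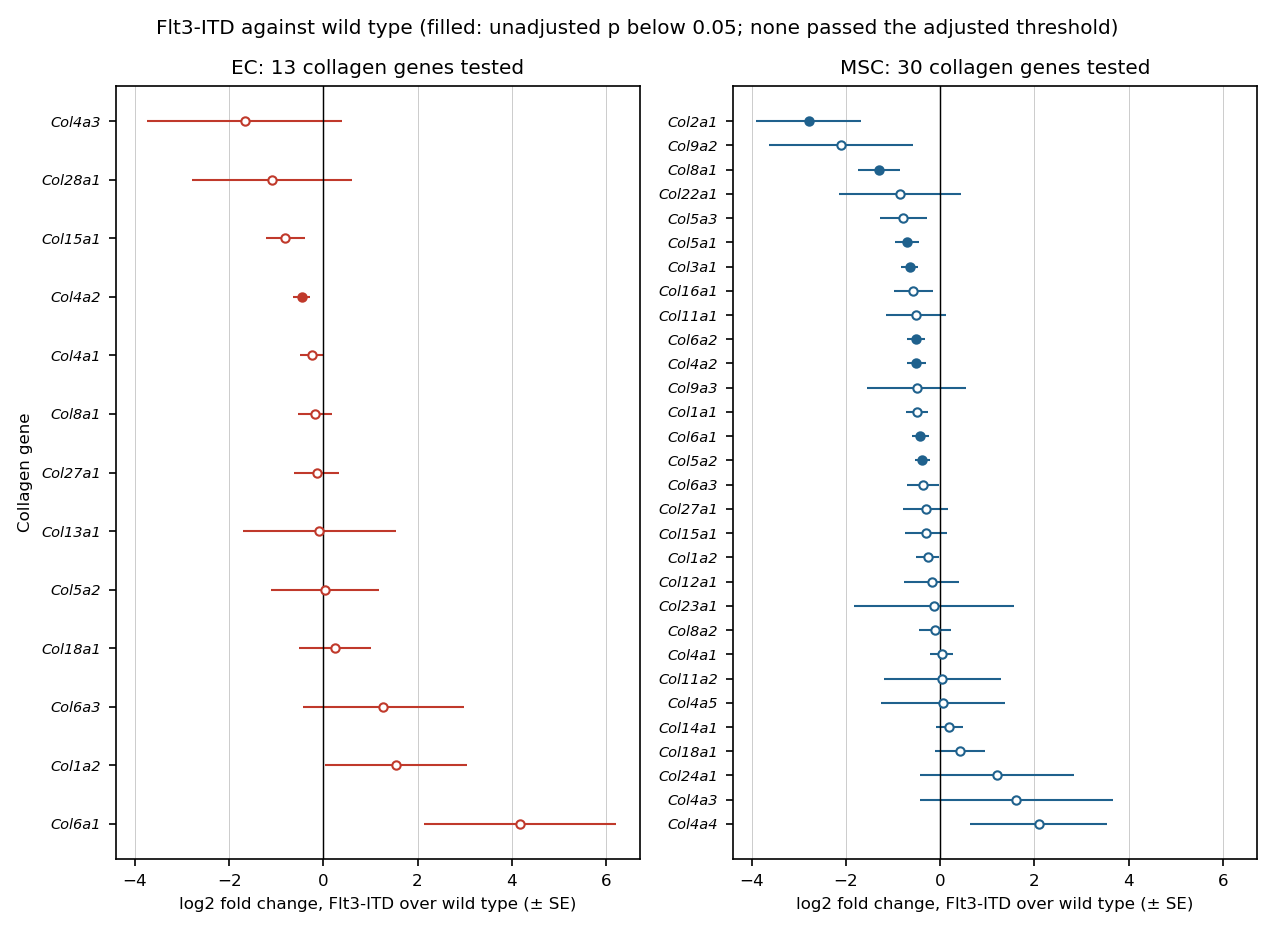
Log2 fold change of Flt3-ITD over wild type (x axis, bars show 1 SE of the edgeR fit) for the 13 collagen genes tested in EC (left) and the 30 tested in MSC (right), 5 libraries per genotype. In MSC 22 of 30 points lie left of 0 and the 8 filled points, under 0.05 by edgeR before adjustment, are all on that side, whereas in EC 8 of 13 lie left of 0 and 1 is filled.

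The count of 8 members under the unadjusted threshold of 0.05 moved with single libraries. It was 13 without library 4 of Flt3-ITD MSC, 4 without library 2, and 5 without library 1 or 3 of Flt3-ITD MSC or library 1 or 2 of wild-type MSC, and in each of these cases 0 members were higher. Sums of skeletal lineage markers reached lower values in Flt3-ITD MSC, with ranges that overlapped. Osteoblast markers summed to 1829 to 3552 RPKM in wild-type and 190 to 2859 RPKM in Flt3-ITD MSC, chondrocyte markers to 3322 to 5884 and 955 to 5715 RPKM, and tenocyte markers to 322 to 703 and 163 to 1089 RPKM. Ibsp, a matrix protein of osteoblasts, was at 2790, 106, 1351, 676 and 312 RPKM in Flt3-ITD MSC. Col1a1 was at 249, 192, 195, 407 and 289 RPKM in the same libraries. Both were lowest in library 2, whereas Ibsp was highest in library 1 and Col1a1 in library 4. The part of these lineages in the collagen levels was not tested. Leukocyte markers summed to at most 85.6 RPKM in wild-type MSC and were highest in library 5 of Flt3-ITD MSC, without which 6 members were lower and 0 higher under the unadjusted threshold of 0.05.

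In EC, 13 members were tested between genotypes and none was called, beside 0.0081% of all genes. Col4a2 alone was under the unadjusted threshold of 0.05, at -0.46 ± 0.18 on the log2 scale (unadjusted p = 0.0285, adjusted p = 0.935 by edgeR), where 2.49% of all genes were lower at this level. Its 5 Flt3-ITD libraries (59.1 to 77.4 RPKM) lay below the 5 wild-type libraries (77.6 to 133), the closest values being 77.4 and 77.6, and 0.542% of all genes were without overlap in this direction. Col4a1 was at -0.25 ± 0.24 and overlapped, and Col15a1 was at -0.81 ± 0.41 (unadjusted p = 0.0763 by edgeR), with 1 Flt3-ITD library at 17.7 RPKM above 3 of the 5 wild-type ones. Col6a1 was at 4.18 ± 2.04 (unadjusted p = 0.0659 by edgeR), with Flt3-ITD libraries at 12.3, 0.01, 0, 1.10 and 7.88 RPKM and wild-type libraries at 0.80, 0.05, 0.15, 0.17 and 0 RPKM. Col1a2 was at 1.54 (unadjusted p = 0.326 by edgeR), with 4.23, 0.16, 0.10, 0.20 and 0.10 RPKM in wild-type EC and 2.73, 0.24, 0.86, 0.80 and 9.85 RPKM in Flt3-ITD EC.

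In MNC, 5 members were tested between genotypes and none was called, beside 0.0144% of all genes. Col23a1, a transmembrane collagen, had 15, 31, 43 and 63 counts in the 4 Flt3-ITD libraries (0.14, 0.26, 0.37 and 0.65 RPKM) and 0, 1, 0 and 1 counts in the 4 wild-type libraries. It was at least 12.2-fold higher in Flt3-ITD MNC than the level of 3 counts per wild-type library, with an unadjusted p of 7.39e-05 and an adjusted p of 0.182 by edgeR. It was the 1 member of 5 under the unadjusted threshold of 0.05 and higher, beside 5.39% of all genes, and the 1 without overlap in that direction, beside 5.72% of all genes. In MSC it spread from 0 to 2.61 RPKM over both genotypes, and in EC it was at 5.35 RPKM in library 4 of Flt3-ITD mice and at or below 0.02 RPKM in the other 9. Hemoglobin and other erythroid transcripts spread widely over these MNC libraries, as given above, and their part in the Col23a1 counts was not tested. Col5a1 was at -2.53 ± 1.29 (unadjusted p = 0.0803 by edgeR), with 2 wild-type libraries at 2.14 and 2.21 RPKM.

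With DESeq2 in place of edgeR, 1 member was called in each population. These were Col4a5 in EC, lower in Flt3-ITD (adjusted p = 0.0553), beside 2.57% of all genes, Col9a1 in MSC, lower (adjusted p = 0.0554), beside 1.29%, and Col23a1 in MNC, higher (adjusted p = 0.00103), beside 2.23%. Col4a5 rested on 2 of 5 wild-type EC libraries and Col9a1 on 3 of 5 wild-type MSC libraries, with the other libraries at or below 2 counts in both cases.

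Whether the genotype fold changes differed between EC and MSC was tested as a difference of differences. No member of 35 was called, beside 0.379% of all genes, and before adjustment 5 were higher and 1 lower under the unadjusted threshold of 0.05, beside 5.3% and 5.28% of all genes. The 5 were Col12a1, Col23a1, Col3a1, Col5a3 and Col6a1, and the 1 was Col4a5. For Col3a1 the difference was 4.23 ± 1.64 (adjusted p = 0.298 by edgeR), with 1 EC library above 0.30 RPKM. For Col4a2, which was abundant in both populations, it was 0.04 ± 0.49. DESeq2 called 3 members, beside 5.55% of all genes: Col4a5, Col12a1 and Col23a1 (adjusted p = 0.0243, 0.0462 and 0.0261), each of which was above 1 RPKM in at most 2 EC libraries.

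Genes that make, export and anchor collagen were compared between EC and MSC by list, where 16.1% of all genes tested were called higher in EC and 16.5% higher in MSC. Several EC means below leaned on 1 library, and their values without it are given. Of 19 genes for chain modification and folding, 0 were called higher in EC and 11 higher in MSC, among them Plod2, a lysyl hydroxylase of the chain ends (41.1 RPKM in MSC and 2.55 in EC, log2 difference -4.29 ± 0.93), P4ha3, a prolyl hydroxylase (log2 difference -4.21 ± 0.57), and the chaperones Fkbp10 (25.6 and 2.96 RPKM, or 0.82 in EC without library 1 of wild-type EC) and Fkbp14 (log2 difference -3.02 ± 0.98). The general procollagen chaperone Serpinh1 was at 53.5 and 36.2 RPKM, and its difference of -0.86 ± 0.27 passed the adjusted p (0.0146 by edgeR) but not the fold rule. Of 10 tested genes for export and propeptide removal, 6 were called higher in MSC, led by Pcolce2, an enhancer of propeptide cleavage (265 RPKM in MSC and 0.008 in EC), and Tll1 alone was higher in EC (2.31 RPKM against 0.260, or 0.109 without library 5 of wild-type MSC).

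Among cross-linking enzymes, Lox and Loxl1, lysyl oxidases of fibrils and elastic fibres, were at 85.7 and 25.7 RPKM in MSC and 1.64 and 0.404 RPKM in EC (1.06 and 0.0967 without library 1 or library 5 of Flt3-ITD EC), while Pxdn, the peroxidasin that cross-links type IV collagen, was at 41.0 RPKM in EC and 4.43 RPKM in MSC (2.94 ± 0.50, adjusted p = 5.3e-05 by edgeR). In all, 4 of 6 cross-linking genes were called higher in MSC, beside 16.5% of all genes, and 1 in EC, beside 16.1%. Among 9 tested collagen receptors 6 were called higher in MSC, beside the same 16.5%, including Itga11 (13.7 against 0.144 RPKM), the integrin chain for fibrillar collagen, Ddr2 (40.4 against 1.14 RPKM, or 0.528 without library 1 of wild-type EC) and Mrc2 (7.08 against 0.029 RPKM), an uptake receptor. Itga1, the integrin chain that binds type IV collagen, was the 1 called higher in EC (37.2 against 2.89 RPKM). A single gene of 6 or of 9 is near the share of all genes, so nothing is read from these counts in EC.

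Of 15 tested basement membrane genes, 2 were called higher in EC, near the 16.1% of all genes, so nothing is read from the count. They were Lama5 (7.02 against 0.133 RPKM, or 0.082 without library 3 of Flt3-ITD MSC), a laminin chain of vessels, and Agrn (16.3 against 1.53 RPKM), and 5 were higher in MSC, beside 16.5% of all genes, including Lama2 (18.4 against 0.129 RPKM, or 0.082 without library 4 of Flt3-ITD EC) and Sparc (2979 against 801 RPKM). All 9 fibril-associated proteoglycans were called higher in MSC, beside 16.5% of all genes, with MSC means of 385 RPKM for Fmod, 229.7 for Kera, 584 for Ogn and 2841 for Lum, all of them small proteins of the fibril surface. In EC, Fmod averaged 0.276 RPKM, or 0.0356 without library 1 of Flt3-ITD EC, and Kera 0.025, or 0.0089 without library 4. Likewise Ogn averaged 0.166 RPKM and Lum 2.44 RPKM in EC, or 0.108 and 0.237 without library 5 of Flt3-ITD EC. None of the genes in these 6 lists was called between genotypes in any population.

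Before adjustment a few of these genes were under the threshold of 0.05 by edgeR between genotypes. All genes gave 4.99% in EC, 4.24% in MSC and 10.4% in MNC. In EC, 1 of 18 modification genes was higher and 1 lower, and 2 of 12 basement membrane genes were lower. In MSC, 1 of 19 modification genes and 1 of 10 export genes were lower, and in MNC 1 of 7 export genes was higher. These counts are too small to set apart from those shares, so nothing is read from them. The genes in EC included Serpinh1 (-0.80 ± 0.29, 62.7, 53.9, 31.2, 55.3 and 27.9 RPKM in wild type against 22.4, 27.5, 21.9, 27.3 and 31.5 in Flt3-ITD), Lama4 (-0.88 ± 0.34) and Tmem38b (1.03 ± 0.44). Those in MSC were Adamts14 (-2.59 ± 0.94) and Plod2 (-0.76 ± 0.30), and that in MNC was Ctage5 (0.54 ± 0.23). Of the fibril-associated proteoglycans in MSC, 2 of 9 were below 0, with a median log2 fold change of 0.15, where 9 of 11 fibrillar chains were below 0. Over all genes tested in MSC, 47.9% were below 0. The difference between the proteoglycans and the fibrillar chains was not tested.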

How the data were processed

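RNA of sorted EC, MSC and MNC was converted to cDNA and sequenced as 51-base single-end reads from polyA mRNA. The submitters' processing notes name mm10, Bowtie and RSEM, whose versions are not given in the sources used here, and the authors discarded reads that mapped to more than 1 place, which can lower genes with near-identical copies. The deposited table holds estimated counts, which were whole numbers in every library, and RPKM values, which the authors normalized for length and depth and rounded to 2 decimals, for 25251 gene symbols. Libraries were grouped by the population and genotype in their titles.

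Estimated counts were used as deposited and tested with edgeR 4.0.16 (quasi-likelihood, TMM scaling, filterByExpr) in R 4.3.3. The fits were per population for genotype and over all 28 libraries for populations and for the difference of the genotype effects. P-values were adjusted over all genes tested by Benjamini-Hochberg. A member was called at an adjusted p under 0.1 and a log2 ratio of mean RPKM (0.01 added) of at least 1, and for the difference of effects at the adjusted p alone. Levels between genes were compared only as RPKM. A detection floor of 3 counts per library was used for lower bounds, which cover counting error only. Alternatives were other size factors, no filter, DESeq2 1.42.0, the adjusted p alone, a replicate block, leaving out libraries, and wild-type libraries only. Population means were also taken without their highest library, which was chosen after seeing the data. Tests were tried on simulated data first.

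The members and lists were chosen with earlier results of these data known. Values in every library were given for the 6 highest members per population, the members with the 4 largest called differences per direction between populations and the 5 with the smallest p between genotypes. Pathway genes were named where called with one of the 4 largest EC to MSC differences of their list, or at p below 0.05 between genotypes, and markers or overlapping genes beside a result they touch (Dcn in EC was chosen after its values were seen). 1 gene that this rule names is not reported here. Which libraries shared a sequencing lane is not given in the sources used here. Same-numbered libraries were compared between genotypes in each population and between EC and MSC of each genotype. Their deviations were little correlated (-0.078 to 0.062), so replicate numbers were not used as pairs. Across genotypes, 3 of 5 libraries in EC, 3 of 5 in MSC and 1 of 4 in MNC correlated best with their own number. Between EC and MSC this held for 1 of 5 in wild type and 0 of 5 in Flt3-ITD. MNC was not compared with EC or MSC, so a pairing is not excluded. It is not stated in the sources used here whether EC, MSC and MNC libraries came from the same mice. Depth was 6377013 to 33880743 counts per library, made from 100 or 200 cells, so counts of a gene are not independent molecules.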

Additional observations from a re-analysis of the deposited data

Results flagged for a closer look

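Every collagen gene with a mean of at least 1 RPKM in a group was examined for a library far from the others. This gave 76 sets of 5 libraries and 1 of 4, and 14 sets held one. The rule marks about 1 in 20 sets when values are normally distributed and sets are independent. RPKM was not transformed, all 14 values lay above the others of their set, and some libraries recurred, so the 14 cannot be compared with that rate. In MSC of Flt3-ITD mice, library 4 was above the rest for Col1a2 (1049.8 RPKM, others 456 to 612), for Col6a1 (262 RPKM, others 167 to 191), for Col6a3 (82.6 RPKM, others 30.5 to 43.9) and for Col12a1 (45.5 RPKM, others 4.79 to 10.8). In the same group, library 1 was above the rest for Col2a1 (12.1 RPKM, others 0.22 to 3.05), for Col6a5 (13.3 RPKM, others 0 to 0.01) and for Col24a1 (9.04 RPKM, others 0 to 1.72). In wild-type mice, library 2 was above the rest for Col4a2 in EC (133 RPKM, others 77.6 to 91.9) and in MSC (40.0 RPKM, others 22.9 to 24.3), and library 3 for Col10a1 in MSC (6.60 RPKM, others 0 to 0.37). In EC of Flt3-ITD mice, library 5 was above the rest for Col1a2 (9.85 RPKM, others 0.24 to 2.73), library 1 for Col3a1 (4.57 RPKM, others 0.01 to 0.30) and Col6a3 (7.95 RPKM, others 0 to 0.52), and library 4 for Col23a1 (5.35 RPKM, others 0 to 0.02). The cause of these values was not tested.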

How the results depend on the processing

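The counts of called members kept within 1.5 times of those reported under nearly every alternative. Between EC and MSC 26 to 31 members were called over all settings, between EC and MNC 14 to 21 (14 with wild-type libraries only), and between MSC and MNC 30 to 37. Leaving out 1 library at a time gave 26 to 29, 18 to 21 and 31 to 35. No member was called for genotype in EC, MSC or MNC, with counts of 0 in every edgeR alternative, while DESeq2 called 1 in each, and the cause of that difference was not tested. For the difference of genotype effects DESeq2 called 3 and edgeR 0, except 1 (Col1a2, adjusted p = 0.0689) without library 1 of wild-type EC (cause not tested), so that leaving out 1 library gave 0 to 1. With the replicate block, 26, 18 and 33 members were called between populations and 0 in each genotype comparison and in the difference of effects. The sources do not state that replicate numbers pair the samples. In MSC 6 members rather than 8 were under the unadjusted edgeR threshold of 0.05 with the block. Without library 2 of Flt3-ITD EC and library 5 of Flt3-ITD MSC, which held most leukocyte transcripts, 26, 19 and 33 were called between populations. In TMM-scaled CPM the 28 members called between EC and MSC kept their direction.

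Among the members and settings examined, direction was reversed only for 2 members in the genotype comparison of MNC with fold changes near 0. Col27a1 (-0.11) became 0.13 and 0.09 without library 4 of wild-type or of Flt3-ITD MNC, and Col1a2 (-0.08) became 0.15 without library 4 of wild-type MNC and 0.09, 0.06 and 0.10 without library 1, 3 or 4 of Flt3-ITD MNC. Over all libraries left out in turn, Col27a1 ranged from -0.33 to 0.13 and Col1a2 from -0.73 to 0.15. Col9a3 was no longer called between EC and MNC under 4 alternatives, at an adjusted p of 0.136 with the block and 0.428 in wild-type libraries. Libraries of 100 cells limit what can be said of members that come and go between libraries, such as Col4a3, Col4a5 and Col28a1.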
